A study of Mus musculus with 2 samples.

Results

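The alpha-defensins and the other granule proteins of Paneth cells were taken as every row of the expression matrix whose symbol begins with Defa and a digit, together with Lyz1, Ang4, Itln1, Mptx1, Mptx2 and Mmp7. This gave 34 of 31253 rows, 28 of them alpha-defensins, and Pla2g2a was on no row. They are described first in granule cells, defined as cells in which Lyz1 and Defa24 together made up at least 5% of the unique molecular identifiers (UMIs, each standing for 1 captured RNA molecule), and then in the remaining cells. Granule cells numbered 431 of 7784 kept cells.

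The study profiled single cells of duodenal crypts from wild-type mice in 2 groups labelled NT and ES, with the crypt cells of 5 animals pooled in each group. The title of the series names long-lasting stress and stem cell ageing as its subject, and the labels do not spell out NT and ES. The sources used here do not give strain, sex or age of the animals. Both groups lie in 1 matrix of 12756 barcodes whose names end in 1 or 2, and no label ties either number to NT or ES. All values below therefore compare library 1 with library 2 without saying which group is which. Each library is 1 pool, so there is no replicate, no test was made, and intervals cover counting error only.

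Paneth cells sit at the base of small-intestinal crypts and release granules of antimicrobial proteins into the crypt lumen. Alpha-defensins are short cationic peptides held by disulfide bridges. In the mouse they are made as inactive precursors, which the metalloprotease matrilysin, encoded by Mmp7, cuts to the active form. Lysozyme (Lyz1) cleaves the peptidoglycan of bacterial walls, Ang4 is a microbicidal ribonuclease, Itln1 is a lectin that binds microbial sugars, and Mptx1 and Mptx2 are mucosal pentraxins.

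All 28 alpha-defensin genes lay on 1 stretch of chromosome 8, chr8:21025545-21735471 in mm10 (GENCODE M21). The ends of their coding sequences are shown because they show the sequence groups whose sums are given below. In genes of the cryptdin type these ends hold most of the mature peptide. Each run is the last 111 coding bases of the GENCODE M21 transcript with the stop codon, and the capitals mark in-frame TGC and TGT codons, those of cysteine.
Defa24: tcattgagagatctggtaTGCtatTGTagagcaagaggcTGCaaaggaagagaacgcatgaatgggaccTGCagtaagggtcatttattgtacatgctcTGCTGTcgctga
Defa30: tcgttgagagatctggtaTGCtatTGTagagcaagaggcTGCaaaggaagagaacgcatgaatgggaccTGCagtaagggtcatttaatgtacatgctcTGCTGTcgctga
Defa17: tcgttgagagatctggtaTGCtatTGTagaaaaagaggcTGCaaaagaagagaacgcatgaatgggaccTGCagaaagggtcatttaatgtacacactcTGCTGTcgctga
Defa26: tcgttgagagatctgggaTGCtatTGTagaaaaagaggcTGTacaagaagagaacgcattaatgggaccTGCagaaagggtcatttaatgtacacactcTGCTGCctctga
Defa21: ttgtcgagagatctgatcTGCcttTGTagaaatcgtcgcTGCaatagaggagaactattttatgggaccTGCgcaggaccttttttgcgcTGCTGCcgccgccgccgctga
Defa22: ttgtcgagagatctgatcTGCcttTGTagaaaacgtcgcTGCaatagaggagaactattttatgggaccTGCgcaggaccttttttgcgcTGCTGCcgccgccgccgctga
Defa5: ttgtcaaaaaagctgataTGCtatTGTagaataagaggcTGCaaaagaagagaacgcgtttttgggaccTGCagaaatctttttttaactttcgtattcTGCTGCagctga
Defa34: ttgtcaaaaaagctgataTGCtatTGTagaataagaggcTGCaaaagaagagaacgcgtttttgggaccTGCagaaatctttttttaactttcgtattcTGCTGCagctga
Defa41: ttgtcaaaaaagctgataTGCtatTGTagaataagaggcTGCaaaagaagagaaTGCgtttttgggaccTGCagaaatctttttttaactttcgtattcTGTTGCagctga
Defa39: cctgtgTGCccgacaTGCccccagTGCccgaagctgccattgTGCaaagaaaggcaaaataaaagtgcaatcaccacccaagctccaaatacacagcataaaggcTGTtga
Defa38: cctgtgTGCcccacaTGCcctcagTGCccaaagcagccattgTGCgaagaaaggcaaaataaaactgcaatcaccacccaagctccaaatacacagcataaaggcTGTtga
Defa29: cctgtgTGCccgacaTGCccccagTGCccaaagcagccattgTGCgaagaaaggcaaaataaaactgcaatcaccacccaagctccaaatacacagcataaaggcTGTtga

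Most of these tails carried 6 cysteine codons, the number in the cryptdins. Defa41 carried 7. Defa39, Defa38 and Defa29 had another tail with 5, in a longer coding sequence of 351 bases instead of 282, as did Defa42 and Defa43. Codons before the shown bases were not counted. In these longer genes the 5 is therefore no count for the whole peptide and cannot be set against the 6 of the cryptdins. Joining genes with at least 95% identical coding sequence gave a Defa24 group (with Defa30, Defa17, Defa3, Defa31 and Defa23), a Defa39 group (with Defa38, Defa29, Defa42 and Defa43), a pair of Defa21 and Defa22, a Defa5 group (with Defa34, Defa35, Defa41, Defa36 and Defa37), a pair of Defa26 and Defa40, a Defa2 group (with Defa20, Defa33 and Defa32), and Defa25, Defa27 and Defa28 alone. Defa21 and Defa22 differed at 2 coding bases, and Defa24 and Defa30 at 4. Over the last 90 bases of the annotated transcript, Defa34 and Defa41 were identical, and Defa21 differed from Defa34 at 2 bases. The libraries were made with a 3' kit, but where the reads fell on these transcripts was not examined. The sources used here do not say how the authors' counting assigned reads among such copies, so values of single copies within a group are uncertain and group sums are given beside them.

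Granule cells stood apart from the rest of the crypt in their content. In library 1 they were 211 of 4057 kept cells, a share of 5.20% (exact Clopper-Pearson 95% interval 4.54 to 5.93). In library 2 they were 220 of 3727, a share of 5.90% (5.17 to 6.71), and the intervals overlapped. Lyz1 and Defa24 together took a median of 24.9% of a granule cell's UMIs in library 1 and 23.6% in library 2, against 0.199% and 0.277% in other cells. These values chose the cells and are given as a description. Just outside the threshold lay cells at 4.83%, 4.86% and 4.93%, and just inside it cells at 5.00%, 5.01% and 5.06%, and 4 of these 6 were of the goblet-like class. Between 4% and 5% there were 6 and 9 cells in libraries 1 and 2, and between 5% and 6% again 6 and 9.

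**Figure D1:**
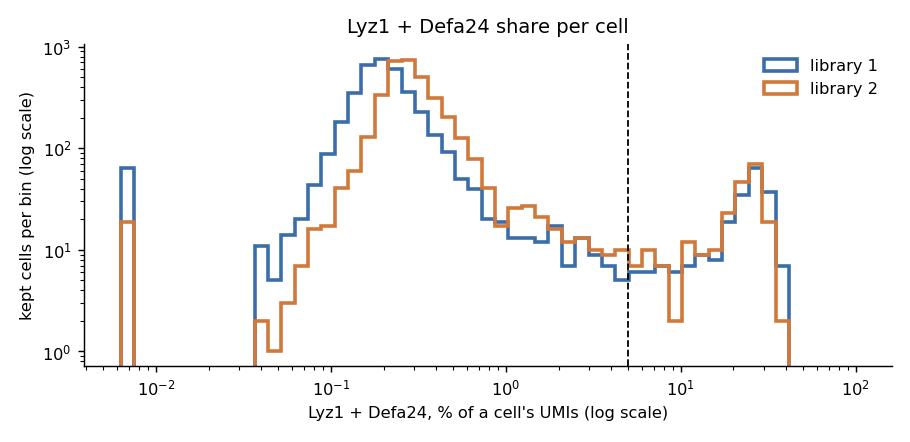
Number of kept cells (log scale) by the share of Lyz1 and Defa24 in a cell's UMIs (log scale, percent), for library 1 and library 2. The dashed line is the 5% threshold, cells without such a UMI are drawn in the leftmost bin, and most cells of both libraries form 1 peak near the medians of 0.199% and 0.277% with a second peak above 20%.

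Depth and quality were as follows. The matrix held 54316199 UMIs in library 1 and 54877667 in library 2. A granule cell had a median of 13658 UMIs and 2189 genes in library 1 and of 10760 UMIs and 2238 genes in library 2. Other kept cells had 10811 and 11860 UMIs but 3537 and 3754 genes. The mitochondrial share was 2.16% and 2.23% in granule cells and 10.4% and 9.45% in the others. Barcode sequences present in both libraries numbered 40.

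The label of Paneth granule proteins was checked on genes outside the list. Clustering that left out all 34 genes gave 18 clusters, and 1 of them, of 355 cells, held 353 of the 431 granule cells, 168 in library 1 and 185 in library 2. Its leading genes were Clps (colipase), Pnliprp2 (a pancreatic lipase-related protein), Reg4, Nupr1 and Habp2, and it is called Paneth-like from the markers Clps, Pnliprp2, Habp2, Fgfrl1 and Copz2. Another 61 granule cells fell in the goblet-like clusters 8 and 9, 32 in library 1 and 29 in library 2, and 17 fell elsewhere. Granule cells of the goblet-like clusters were shallower, with a median of 2738 and 4708 UMIs, and the 34 genes made up 21.2% and 22.7% of their UMIs against 61.8% and 63.3% in the Paneth-like cluster. Their Clps level was 898 and 1059 counts per 1000000 UMIs (CPM) in libraries 1 and 2, between the 3231 and 3612 CPM of the Paneth-like granule cells and the 66.0 and 113 CPM of goblet-like cells below the threshold. Muc2, the main gel-forming mucin of goblet cells, stood at 4602 and 8278 CPM in them against 444 and 835 CPM in the Paneth-like granule cells. Doublets were not called, and their part in these cells was not tested.

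A few of the 34 genes gave a large part of the RNA of granule cells. Summed over granule cells, the 34 genes held 59.5% of all UMIs in library 1 and 60.1% in library 2. Of the 34, 23 reached 100 UMIs over both libraries in these cells and are called measured. Since each UMI marks 1 molecule at its 3' end, CPM is compared between genes without a correction for length.

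Defa24 (ENSMUSG00000064213) was the most abundant, at 173717 CPM in library 1 and 171089 CPM in library 2. Its near copy Defa30 (ENSMUSG00000074444) followed at 104098 and 95708 CPM. Lysozyme, which with Defa24 set the threshold, stood at 67814 and 66537 CPM. Defa24 alone thus made up 29.2% and 28.5% of the UMIs of the 34 genes.

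The Defa39 group, with the longer coding sequence and the other tail, formed the next block. Defa39 itself was at 77835 and 76458 CPM, Defa38 at 57321 and 53023 CPM, and Defa29 at 10972 and 11716 CPM. Defa42 and Defa43, which share that tail, had between 9 and 24 UMIs per library. The sum of the group was 146138 and 141210 CPM, below the Defa24 group at 299046 and 291351 CPM.

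The remaining cryptdin rows were lower. Defa17, whose coding sequence is identical to that of Defa3, was at 19176 and 22189 CPM, and Defa3 at 2018 and 2324 CPM. Defa5 stood at 7975 and 9408 CPM. Defa34, of the same group, was at 1826 and 2501 CPM, a library 2 to library 1 ratio of 1.37 (1.32 to 1.42). Defa26 was at 4314 and 4340 CPM and Defa40 at 2717 and 2878 CPM. Defa28, Defa31 and Defa27 stayed between 20.4 and 46.0 CPM. Of the rows under 100 UMIs, Defa36, Defa42, Defa25, Defa43, Defa23, Defa2, Defa37, Defa20, Defa33 and Defa32 had between 0 and 37 UMIs in a library, and Defa20, Defa32 and Defa33 were at 0 in 1 library each, where 3 counts would be 1.06 CPM in library 1 and 1.10 CPM in library 2.

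Among the proteins that are no defensins, the lectin Itln1 led with 27155 and 27582 CPM. The pentraxin Mptx2 was at 8171 and 7397 CPM, and the protease gene Mmp7 at 2760 and 3132 CPM, in 97.2% and 97.7% of granule cells. Mptx1, whose coding sequence is 92.0% identical to that of Mptx2, had 30 and 36 UMIs in all granule cells, or 10.6 and 13.3 CPM.

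**Figure D2:**
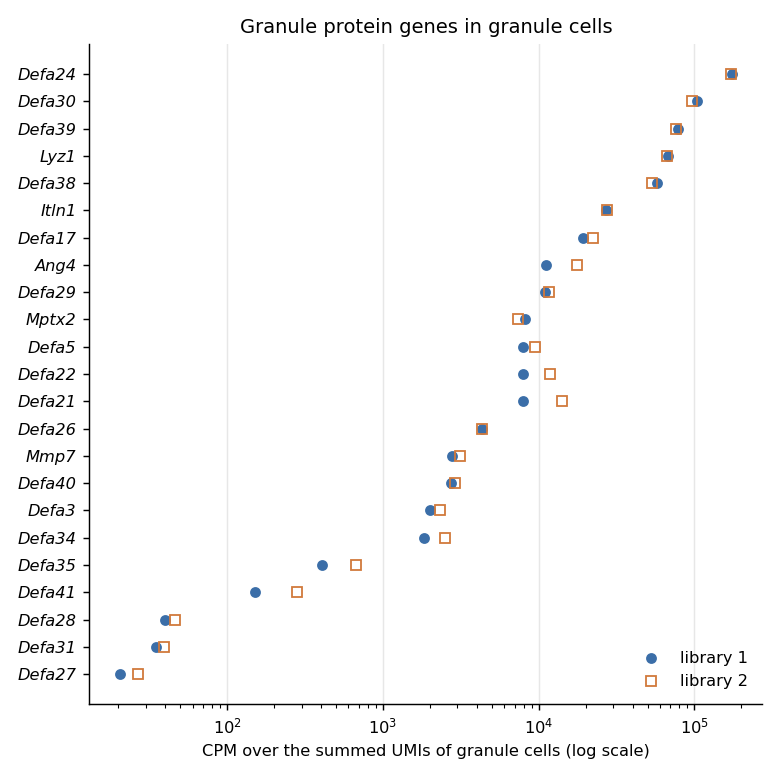
Level of the 23 measured genes in granule cells, as CPM over the cells' summed UMIs (log scale), with filled circles for library 1 and open squares for library 2. The symbols nearly coincide for the leading genes and separate most for Ang4, Defa21, Defa22, Defa35 and Defa41, all higher in library 2.

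The libraries were compared by the ratio of library 2 to library 1, and a gene is called apart where that ratio is at least 1.5 in either direction and its exact conditional Poisson 95% interval leaves out 1. Of the 23 measured genes, 4 were apart and higher in library 2 and 0 were apart and lower. Over all 4185 genes with 100 UMIs in granule cells, 5.4% were apart and higher and 6.09% were apart and lower. Without Lyz1 and Defa24, 17 of 21 ratios were above 1, with a median of 1.15, against a median of 0.973 over all genes.

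Ang4 (ENSMUSG00000060615) was at 11050 CPM in library 1 and 17643 CPM in library 2, a ratio of 1.60 (1.57 to 1.62). Defa21 (ENSMUSG00000074447) was at 7922 and 14041 CPM, a ratio of 1.77 (1.74 to 1.80). Defa35 was at 409 and 674 CPM, a ratio of 1.65 (1.53 to 1.78), and Defa41 at 151 and 281 CPM, a ratio of 1.87 (1.66 to 2.11). Defa22, at 7926 and 11807 CPM, had a ratio of 1.49 (1.46 to 1.52) and missed the size limit.

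The 4 calls were sensitive to the deepest cells. Leaving out the 5% of cells with most UMIs in each library left Defa21 apart at 1.72 but lowered Ang4 to 1.45, Defa35 to 1.48 and Defa41 to 1.36. With every cell weighted equally, Ang4 was at 1.34, Defa21 at 1.49, Defa35 at 1.398 and Defa41 at 1.54. No interval was computed in that setting, so Defa41 reached the size limit by its ratio alone. Restricting the comparison to the granule cells of the Paneth-like cluster gave 1.61 for Ang4, 1.78 for Defa21, 1.69 for Defa35, 1.91 for Defa41 and 1.52 for Defa22, so that 5 genes were apart there. In none of these settings did any of the 5 genes fall below a ratio of 1.

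Summed over sequence groups, the pair of Defa21 and Defa22 was at 15848 and 25849 CPM, a ratio of 1.63 (1.61 to 1.65). The Defa5 group was at 10375 and 12877 CPM (ratio 1.24), the Defa26 pair at 7031 and 7218 CPM (1.03), the Defa39 group at a ratio of 0.966 and the Defa24 group at 0.974. Among these sums the level was higher in library 2 for the Defa21 pair and, to a smaller degree, for the Defa5 group. The groups that hold most of the defensin RNA lay within 5% of equality. Defa24 helped to choose these cells, and both large groups are a large part of the total that CPM divides by. Their near equality is therefore a description. The sum of the Defa21 pair does not depend on how reads were divided between Defa21 and Defa22. Reads could still be divided between this pair and the Defa5 group. Transcript ends of Defa34, Defa41 and Defa5 differ from those of the pair at 2 to 4 bases.

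The upstream sequences of the Defa21 pair, Defa35 and Defa30 are shown because the first 3 rows were higher in library 2 and Defa30 was not. Each run is the 250 bases before the RefSeq transcription start (GRCm38.p6), all on the plus strand, for Defa21 at chr8:21025295-21025544, for Defa35 at chr8:21064788-21065037 and for Defa30 at chr8:21134400-21134649. Capitals mark ATCAAAG, a form of the motif of the TCF/LEF factors that act in Wnt signalling, searched on both strands (the other strand reads CTTTGAT) after some of these sequences had been read.
Defa21: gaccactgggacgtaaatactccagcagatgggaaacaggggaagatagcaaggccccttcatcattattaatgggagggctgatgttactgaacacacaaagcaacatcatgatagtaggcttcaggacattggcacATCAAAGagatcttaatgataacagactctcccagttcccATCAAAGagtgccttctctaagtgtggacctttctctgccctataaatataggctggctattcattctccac
Defa35: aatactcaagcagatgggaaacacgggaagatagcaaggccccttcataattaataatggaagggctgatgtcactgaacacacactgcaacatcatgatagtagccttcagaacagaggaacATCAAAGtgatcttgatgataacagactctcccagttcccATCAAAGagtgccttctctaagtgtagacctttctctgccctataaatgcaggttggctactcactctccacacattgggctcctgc
Defa30: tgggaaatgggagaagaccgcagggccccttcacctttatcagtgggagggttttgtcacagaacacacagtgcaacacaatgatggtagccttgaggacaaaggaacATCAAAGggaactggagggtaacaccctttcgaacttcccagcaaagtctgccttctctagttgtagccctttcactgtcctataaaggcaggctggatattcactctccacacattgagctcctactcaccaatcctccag

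The 250 bases before Defa22 were identical to those before Defa21, and those before Defa35 were 80.7% identical. The motif began 72 and 112 bases before the start of Defa21 and Defa22, 87 and 127 bases before that of Defa35, and 142 bases before that of Defa30. It also began 115 and 155 bases before the start of Defa41 (library ratio 1.87). Before Defa31 (ratio 1.12, 0.844 to 1.49) it began at 74 and 114 bases. It was present before 13 of the 16 alpha-defensin genes with a RefSeq promoter entry (81.2%) and in 3.21% of all 32851 promoters of that length. It was absent from this window in Defa38, Defa42 and Defa43, and in Lyz1, Ang4 (library ratio 1.60), Itln1, Mptx1 and Mptx2. Mmp7 held it in 1 entry, 247 bases before the start, and not in another. Whether the motif bears on the library ratios was not tested. A match is a match of letters and no measurement of binding.

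Markers of other cell types moved between the libraries in the same granule cells. The 10 goblet markers, none of them at 0, summed to 9698 CPM in library 1 and 15498 CPM in library 2. The 10 stem markers summed to 2723 and 1105 CPM, the 16 enterocyte markers to 2395 and 4283 CPM, the 13 enteroendocrine markers to 127 and 356 CPM, and the 12 lymphocyte markers to 240 and 288 CPM. The 11 cycling progenitor markers summed to 843 and 534 CPM and the 9 tuft markers to 16.5 and 50.1 CPM. At 0 in both libraries were 1 of 7 B cell, 5 of 8 myeloid, 4 of 6 stromal, 2 of 3 endothelial and 3 of 3 erythroid markers. The B cell list summed to 1.41 and 7.73 CPM and the myeloid list to 14.8 and 16.9 CPM. The stromal list summed to 1.76 and 7.365 CPM and the endothelial list to 1.06 and 0.368 CPM. Within the Paneth-like cluster alone Muc2 was again higher in library 2, at 835 against 444 CPM, and the part of this shift in the ratios of Ang4 and the defensins was not tested.

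Other genes of the Paneth cell were compared in the same granule cells. Over all 4185 genes measured in them, 5.4% were apart and higher and 6.09% were apart and lower. Of 11 measured Paneth-associated genes, 0 were apart, at a median ratio of 1.08, and the most abundant were Spink4, a peptidase inhibitor (4829 and 6744 CPM), and Clps (3101 and 3406 CPM). Not all of the list set granule cells apart. In goblet-like cells below the threshold Clps was at 66.0 and 113 CPM, but Spink4 at 4259 and 6161 CPM. Dmbt1 was at 427 and 594 CPM in granule cells and 995 and 1531 CPM in enterocyte-like cells. Fgfrl1, a marker used to name the Paneth-like cluster, was at 20.8 and 22.5 CPM against 16.2 and 19.6 CPM in stem-like cells. Disulfide formation and protein folding in the endoplasmic reticulum, on which defensins depend, showed 0 of 9 measured genes apart, but all 9 had ratios above 1 and the median was 1.19. Hspa5, the main chaperone of that compartment, was at 590 and 661 CPM, and the disulfide isomerase Agr2 at 562 and 821 CPM, against 5982 and 8493 CPM in goblet-like cells below the threshold.

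Transcription factors of secretory fate gave 2 of 8 measured genes apart, both higher in library 2, where 5.4% of all measured genes were. These were Creb3l1 (48.2 and 85.8 CPM, ratio 1.78) and Spdef (24.3 and 37.9 CPM, ratio 1.56), while Xbp1 stood at 185 and 210 CPM and Sox9 at 158 and 140 CPM. Creb3l1 and Spdef were higher in goblet-like cells below the threshold than in granule cells, at 380 and 588 CPM for Creb3l1 and 108 and 205 CPM for Spdef. Both are among the goblet markers whose sum is given above, so their ratios are no result apart from that sum. Of 7 listed niche ligands, 1 was measured, Wnt3, at 37.0 and 44.6 CPM with a ratio of 1.21, and the Notch ligand Dll1, with 31 and 65 UMIs, was under the limit at 10.9 and 23.9 CPM.

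Among 6 measured genes of granule secretion, autophagy and sensing, 1 was apart and higher, Ern2, where 5.4% of all measured genes were. Ern2, an endoplasmic reticulum stress sensor of mucosal epithelia, was at 38.7 and 63.7 CPM (ratio 1.65). In goblet-like cells below the threshold it was higher, at 140 and 222 CPM. Rab11a, at 62.0 and 77.0 CPM, was the most abundant of the 6. Of these lists, other antimicrobial genes had the largest share apart, with 4 of 7 measured genes apart, all higher in library 2, and a median ratio of 1.87. They were Retnlb (13.7 and 41.6 CPM), Lypd8 (775 and 1484 CPM), Reg3b (320 and 605 CPM) and Reg3g (1020 and 1905 CPM). In enterocyte-like cells Lypd8 was at 5072 and 6824 CPM, Reg3b at 8186 and 5300 CPM and Reg3g at 5148 and 6030 CPM, all above their levels in granule cells. Retnlb was at 0 and 1.996 CPM in enterocyte-like cells, and at 17.5 and 51.4 CPM in goblet-like cells below the threshold. The sum of the enterocyte markers in granule cells was higher in library 2, at 4283 against 2395 CPM. Reg3b and Reg3g are themselves among those markers, so that sum is no separate value for them. The part of RNA from other cell types in these 4 ratios was not tested. Pigr, the transporter of secreted antibodies, was the most abundant of this list at 1968 and 2322 CPM.

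The mix of granule genes differed with how much Lyz1 and Defa24 a cell held. The share of each gene among the UMIs of the other 32 genes was followed over bands of the Lyz1 and Defa24 share. Cells at 2% to 5%, of which 70.2% and 85.7% were goblet-like, held 22.9% of these UMIs as Itln1 in library 1 and 28.7% in library 2. Cells at 20% to 30%, of which 92.2% and 99.2% were Paneth-like, held 7.42% and 7.30%.

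Ang4 held 9.02% and 18.1% in the lower of these bands and 3.04% and 4.83% in the upper. Mmp7 held 4.04% and 6.93% in the lower and 0.742% and 0.792% in the upper, and Defa17 13.5% and 13.0% against 5.28% and 5.71%. Itln1, Ang4, Mmp7 and Defa17 therefore made up a larger part of the granule RNA at 2% to 5% than at 20% to 30% in both libraries. Below 0.5%, where 3615 and 3079 cells lay, Itln1 was again at 9.46% and 9.14%.

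Defa30, Defa22 and Defa5 were lower at 2% to 5% than at 20% to 30% in both libraries. Defa30 took 16.3% and 12.3% at 2% to 5% and 29.2% and 26.5% at 20% to 30%. Between these bands, at 5% to 10%, it was at 32.2% in library 1 and 12.8% in library 2, and below 0.5% it was at 30.1% and 26.9%, so its share did not follow 1 direction over the bands. Defa22 was at 0.700% and 1.404% at 2% to 5%, at 0.254% and 0.658% at 5% to 10%, and at 2.47% and 3.498% at 20% to 30%. Defa5 was at 1.55% and 0.819%, at 1.15% and 0.409%, and at 2.38% and 2.69% in the same bands.

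The bands also differed in depth, with medians of 2093 and 3392 UMIs per cell at 5% to 10% against 17176 and 16657 at 20% to 30%. They held 23 and 28 cells against 116 and 127. After thinning each cell to 2000 UMIs, Itln1 was at 20.8% and 26.3% of the UMIs in the 2% to 5% band and at 7.49% and 7.40% in the 20% to 30% band. Defa22, also thinned, was at 0.102% and 0.414% at 5% to 10%, from 2 and 8 UMIs over 15 and 20 cells, and at 2.11% and 2.91% at 20% to 30%.

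**Figure D3:**
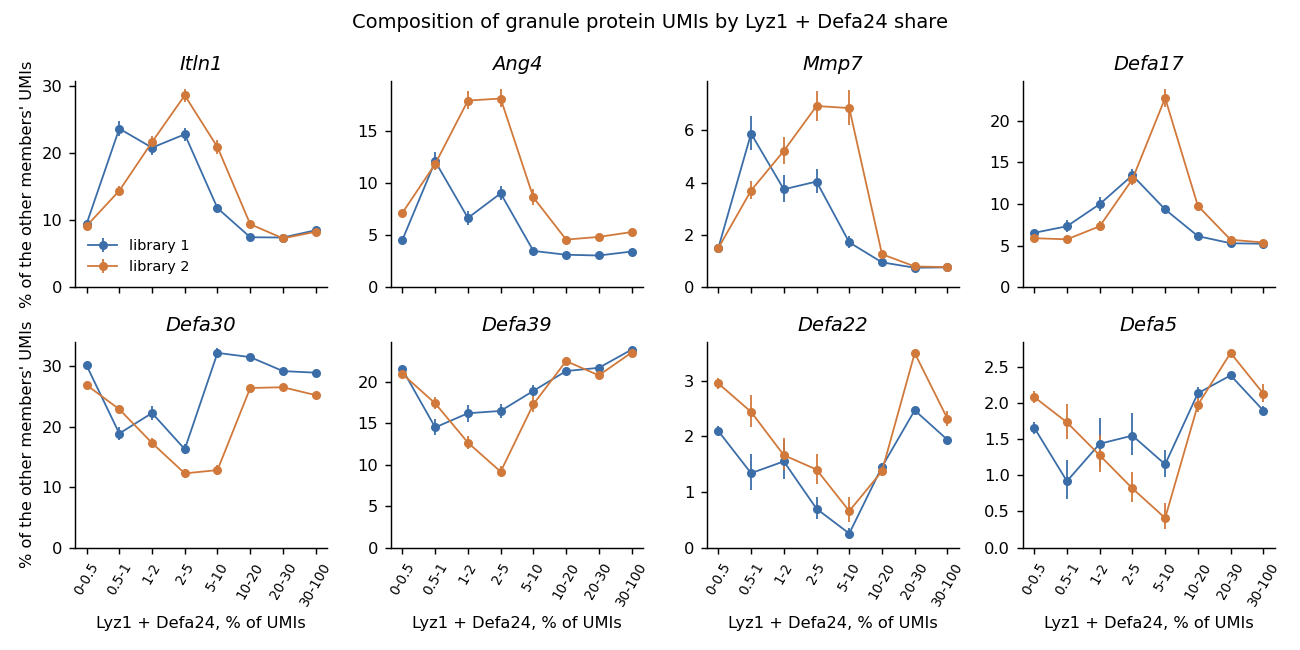
Share of 8 genes among the UMIs of the 32 genes other than Lyz1 and Defa24 (percent), in cells banded by the share of Lyz1 and Defa24 in all UMIs (percent), with exact binomial 95% intervals that cover counting error only. Itln1, Ang4, Mmp7 and Defa17 peak in the middle bands of both libraries, and Defa22 is lowest at 5-10% in both libraries, while Defa5 is lowest at 5-10% in library 2 and at 0.5-1% in library 1; the band above 30% holds 33 and 13 cells.

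Single granule cells varied widely in Defa21 and in some other members. The share of Defa39 among a cell's granule UMIs had a median of 12.7% in library 1 (5th to 95th percentile 5.41 to 17.1) and 12.6% in library 2 (4.24 to 16.5). The share of Defa21 had a median of 0.508% in library 1 with a 95th percentile of 3.94, and of 0.861% in library 2 with a 95th percentile of 5.600. Its standard deviation was 1.25 and 1.16 times its mean, against 0.295 and 0.329 times for the more abundant Defa39. The same value was 1.70 and 1.46 for Defa34, 1.34 and 1.285 for Defa22, and 1.33 and 1.24 for Mmp7. All granule cells enter here, including the shallower ones outside the Paneth-like cluster. No Defa21 UMI was found in 9.95% and 8.18% of granule cells. Mptx2 likewise was missing from 8.06% and 13.2% of them, while Itln1 and Defa39 were found in every granule cell of both libraries.

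Across the 168 and 185 granule cells of the Paneth-like cluster, shares of 18 genes with at least 5000 UMIs were correlated by pairs. The cells of a library share its depth and preparation, the shares of a cell sum to a fixed total, and near-identical copies may share reads, so the coefficients are descriptions. Spearman's correlation coefficient was above 0.5 in both libraries for 4 of 153 pairs, all among Defa21, Defa22, Defa5 and Defa29. It was 0.66 and 0.79 for Defa21 with Defa22, 0.62 and 0.68 for Defa21 with Defa5, 0.62 and 0.66 for Defa22 with Defa5, and 0.61 and 0.65 for Defa5 with Defa29. Defa5 and Defa29 have unlike coding sequences, 62.6% identical.

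Outside granule cells the sum of the 34 genes was low in every class, and it was higher in library 2. Clusters that could not be named held 1329 and 983 such cells. The 34 genes summed to 4109 and 5930 CPM in them, a ratio of 1.44, and these cells are in none of the classes below. Lymphocytes are not known to make these proteins, and in the lymphocyte-like class the 34 genes summed to 3711 CPM in library 1 and 5672 CPM in library 2, a ratio of 1.53 (1.46 to 1.60). Defa24 gave at least 1 UMI in 96.1% and 98.7% of these cells at median depths of 2444 and 3222 UMIs. These values are read as the background of each library. Stem-like cells (4587 and 5803 CPM), cycling progenitor-like cells (4367 and 5662 CPM), enterocyte-like cells (4008 and 6022 CPM) and enteroendocrine-like cells (4618 and 5974 CPM) lay near it. Their ratios were 1.27, 1.30, 1.502 and 1.29, against 1.009 for the same sum in granule cells. Lyz1 and Defa24 chose the granule cells and are part of this sum, which makes up most UMIs of those cells. The value of 1.009 is therefore limited by the choice of cells and by the fixed total, and is given as a description.

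In lymphocyte-like cells 7 of 10 measured genes were apart and higher, where 6.3% of all genes were. The counts were 4 of 16 in stem-like cells (1.87% of all genes), 5 of 18 in cycling progenitor-like cells (2.6%), 11 of 18 in enterocyte-like cells (3.86%), 3 of 10 in enteroendocrine-like cells (8.7%) and 5 of 19 in goblet-like cells (4.18%). No measured gene of the 34 was apart and lower in any of these 6 classes, where 5% (lymphocyte-like), 1.28% (stem-like), 1.2% (cycling progenitor-like), 1.02% (enterocyte-like), 5.33% (enteroendocrine-like) and 4.18% (goblet-like) of all genes were. Ang4, Defa21 and Defa22 were apart in each of the 6. The goblet-like, enterocyte-like and lymphocyte-like classes drew on different clusters in the 2 libraries. With granule cells included, clusters 8 and 9 held 330 and 245 goblet-like cells in library 1 and 199 and 416 in library 2. Clusters 3 and 10 held 146 and 138 enterocyte-like cells against 261 and 185. Clusters 13 and 14, with granule cells again included, held 192 and 93 lymphocyte-like cells against 40 and 197.

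**Figure D4:**
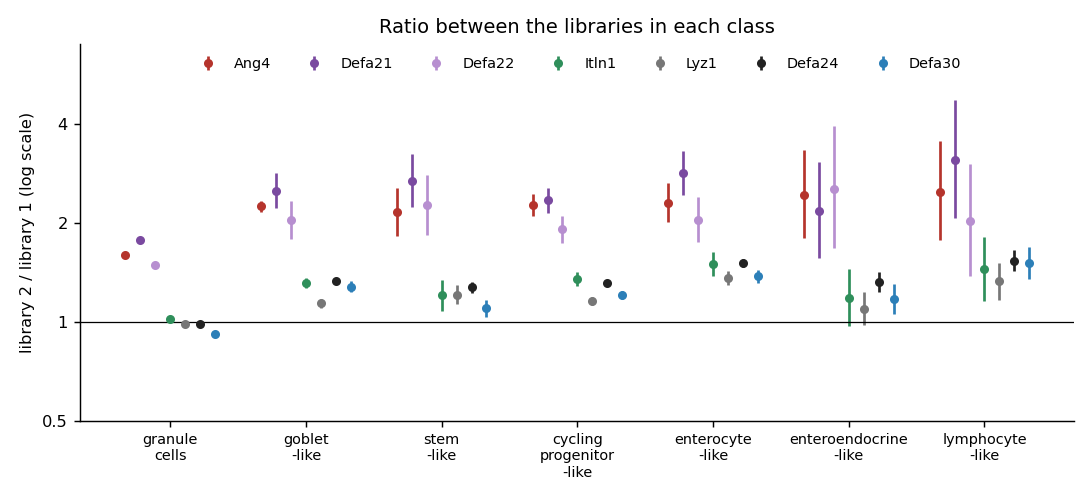
Ratio of library 2 to library 1 (log scale) for 7 genes in granule cells and in 6 classes below the threshold, with exact conditional Poisson 95% intervals that cover counting error only. Ang4, Defa21 and Defa22 lie above the other genes in every class, at 1.60, 1.77 and 1.49 in granule cells. All 7 genes lie higher in the other classes than in granule cells, which were chosen by Lyz1 and Defa24.

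The library ratios of Ang4 and Defa21 were larger in lymphocyte-like, stem-like and cycling progenitor-like cells than in granule cells. Ang4 was at 55.8 and 138 CPM in lymphocyte-like cells (ratio 2.48), 67.3 and 145 CPM in stem-like cells (2.15) and 60.8 and 138 CPM in cycling progenitor-like cells (2.27). Defa21 was at 38.0 and 118 CPM, 49.5 and 133 CPM, and 49.0 and 115 CPM in the same classes, with ratios of 3.10, 2.69 and 2.34. Both genes exceeded the ratio of Defa24, which was 1.53, 1.27 and 1.31 there and 0.985 in granule cells, which Defa24 helped to choose.

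The mix of the genes in these classes was described by the share of each among the UMIs of the 32 genes other than Lyz1 and Defa24, since those 2 genes set the threshold. Over the stem-like, cycling progenitor-like, enterocyte-like, enteroendocrine-like and lymphocyte-like classes, Defa30 took between 31.0% and 32.1% in library 1 and between 27.7% and 29.99% in library 2, against 29.4% and 26.35% in granule cells. Itln1 took between 8.21% and 9.11% and between 7.53% and 8.59%, against 7.67% and 7.59%. Ang4 took between 2.75% and 3.02% and between 4.51% and 5.52%, against 3.12% and 4.86%, so that the library difference in its share was present in these 5 classes as in granule cells.

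Mptx2 and Defa29 had smaller shares in each of the 5 classes than in granule cells. Mptx2 took between 1.11% and 1.58% in library 1 and between 1.03% and 1.37% in library 2, against 2.31% and 2.04%. Defa29 took between 1.36% and 2.14% and between 1.92% and 2.29%, against 3.10% and 3.225%. Mmp7 took between 0.755% and 1.21% and between 0.896% and 2.19%, against 0.780% and 0.862%. These ranges rest on between 1583 and 37623 UMIs per class and library.

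Goblet-like cells below the threshold had another mix. Ang4 took 13.1% and 20.35% of the UMIs of the 32 genes, Itln1 21.3% and 19.4%, and Mmp7 5.29% and 5.33%, each above the ranges of the other 5 classes. Defa30 at 18.9% and 16.7%, Mptx2 at 0.844% and 0.704% and Defa29 at 1.22% and 1.17% lay below those ranges, and Defa39 took 14.6% and 13.2% against 21.99% and 21.05% in granule cells.

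In level, Mmp7 was at 218 and 317 CPM in goblet-like cells against 20.1 and 28.6 CPM in stem-like, cycling progenitor-like and enterocyte-like cells pooled, a fold of 10.8 (9.77 to 12.1) in library 1 and 11.1 (10.1 to 12.1) in library 2. Ang4 was at 539 and 1210 CPM against 61.9 and 140 CPM, a fold of 8.70 and 8.67. Itln1 was at 877 and 1152 CPM against 187 and 254 CPM, a fold of 4.69 and 4.54. Defa24 had folds of 2.29 and 2.25, Lyz1 of 1.98 and 1.87 and Defa17 of 2.46 and 2.21, whereas Defa30, Defa39, Defa21 and Mptx2 lay between 1.02 and 1.21. The folds of Mmp7, Ang4 and Itln1 were nearly equal in the 2 libraries although their levels were not.

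**Figure D5:**
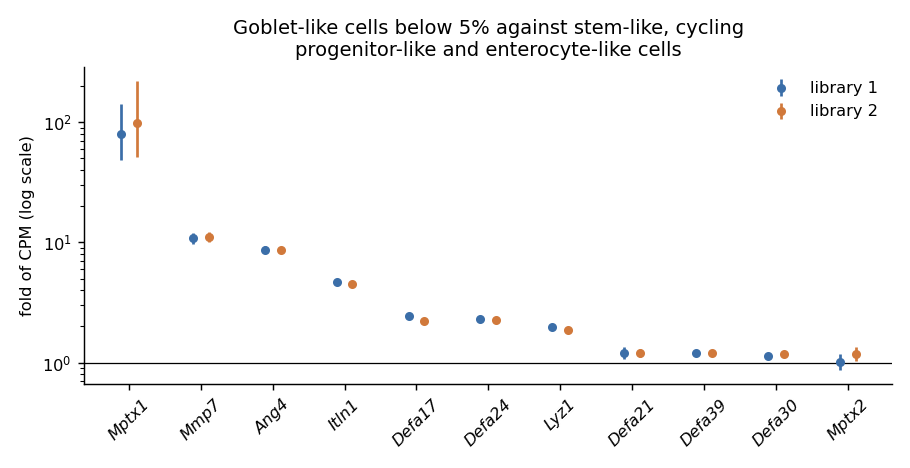
Fold of the level (CPM, log scale) in goblet-like cells below the 5% threshold over stem-like, cycling progenitor-like and enterocyte-like cells together, for 11 genes in library 1 and library 2, with exact conditional Poisson 95% intervals that cover counting error only. Mptx1, Mmp7, Ang4 and Itln1 lie above 4 in both libraries, and Defa21, Defa39, Defa30 and Mptx2 lie near 1.

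The excess was larger in cluster 9, which was led by Clca1, Zg16, Fcgbp and Muc2, than in cluster 8, led by Agr2, Creb3l1 and Atoh1. Ang4 had a fold of 15.3 and 11.1 in cluster 9 and of 5.56 and 5.08 in cluster 8. Mmp7 had 19.6 and 14.3 against 6.70 and 6.44, and Itln1 8.01 and 5.73 against 3.11 and 2.81. The 10 cells with most Ang4 UMIs held 47.25% and 47.15% of the Ang4 UMIs of cluster 8 and 43.4% and 28.4% of those of cluster 9 in libraries 1 and 2. After thinning to 2000 UMIs, 37.2% and 58.9% of goblet-like cells held an Ang4 UMI, against 8.53% and 19.0% of lymphocyte-like cells. For Mmp7 these shares were 26.9% and 33.3% against 4.74% and 5.13%, and for Defa30, whose fold was small, 77.7% and 85.6% against 67.3% and 73.3%. Shallower cells were left out, 100 and 78 of the goblet-like and 73 and 42 of the lymphocyte-like cells, and before thinning the Ang4 shares were 65.4% and 86.7% against 13.0% and 37.5%.

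Mptx1 was found mainly in goblet-like clusters and seldom in the Paneth-like one. Of its 389 UMIs in kept cells of library 1, 92.3% (exact 95% interval 89.2 to 94.7) lay in the goblet-like clusters and 2.31% in the Paneth-like cluster. In library 2 it was 93.1% (89.6 to 95.7) and 2.63% of 304 UMIs. Its level in goblet-like cells below the threshold was 52.8 and 39.4 CPM, a fold of 79.3 (48.1 to 140.4) and 99.1 (51.4 to 219.3) over stem-like, cycling progenitor-like and enterocyte-like cells.

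Few cells carried it. A Mptx1 UMI was seen in 13.4% and 8.36% of goblet-like cells and, after thinning, in 5.64% and 3.94%, and 10 cells held 60.7% and 71.0% of its goblet-like UMIs. Lymphocyte-like cells held 0 Mptx1 UMIs in 284 and 237 cells, which allows a share of up to 1.06% and 1.27% of cells with a UMI. Its paralog Mptx2 had the opposite distribution, with 93.3% (exact 95% interval 93.05 to 93.5) of its 46422 kept-cell UMIs in granule cells and a goblet-like fold of 1.02 and 1.18.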

How the data were processed

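Droplet single-cell RNA libraries were made from crypt cells of duodenum with a Chromium 3' kit, per the labels' protocols. Cell Ranger 2.1.1 and the mm10 build are named in the submitters' processing notes, with no role given. The deposited matrix holds raw UMI counts, 1 whole number per gene and barcode, for both libraries, and the sources used here do not describe cell calling. Barcodes are 27 bases long, and the chemistry behind that length was not settled.

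Barcodes entered the comparisons from 500 detected genes upward and up to 25% mitochondrial UMIs (7784 of 12756, 61.0%). Counts were summed over cells of a library, divided by their total UMIs and given as CPM. Ratios carry exact conditional Poisson intervals and shares exact Clopper-Pearson intervals, at 95%, covering counting error only. Genes with under 100 UMIs in the cells compared were not called. Clusters came from 2000 variable genes without the 34 members, 30 principal components, 15 neighbours and Leiden resolution 1 (scanpy 1.11.5, Python 3.11.15). Classes were named from marker lists. Tuft-like and B cell-like cells, under 50 in a library, were left out of class values. Clusters without a name were left out too, except for the sum of the 34 genes. No doublet caller was run.

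All 34 members are accounted for, those with 100 UMIs in granule cells with values. Of each further gene list the 2 genes with most UMIs and those apart are named. The members, lists and alternatives were chosen with earlier results of these data known. Of 14 listed defensin-like symbols without a Defa-digit name, 12 are older names of members, AY761185 had 2 and 1 UMIs in granule cells, and 1 was not matched. Coordinates and transcripts are of GENCODE M21, and promoters of RefSeq GRCm38.p6, where 22 members had an entry. The alternatives tried are given in the closing section. Negative correlations between members are not reported here.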

Additional observations from a re-analysis of the deposited data

Results flagged for a closer look

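Barcodes that failed the cell filter were used in no comparison, yet some of them passed the Lyz1 and Defa24 threshold, 34 in library 1 and 46 in library 2. Under 500 genes were found in 32 and 45 of them, and over 25% mitochondrial UMIs in 2 and 4. Their median depth was 751 and 718 UMIs, and the 34 genes made up 33.9% and 36.4% of their UMIs. Within these, Defa24 took 32.9% and 32.3%, Lyz1 15.2% and 13.0%, Itln1 4.87% and 4.47%, Ang4 1.92% and 2.096%, and Mmp7 0.521% and 0.564%.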

How the results depend on the processing

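The share of granule cells was 5.20% and 5.90% in libraries 1 and 2, 3.88% and 4.13% with no cell filter, 6.36% and 7.41% with a threshold of 2%, and 5.15% in library 2 with a threshold of 10%. In each of these settings library 2 was the higher. The 4 genes apart and higher in library 2 became 1 after thinning to 2000 UMIs (Defa35) and 1 without the 5% deepest cells (Defa21). At a ratio of 2 they became 0. With each cell weighted equally, no interval was computed, and Defa41 and Defa27 reached the size limit by ratio alone. For Defa27 the interval of the main comparison, 0.920 to 1.89, held 1. The 0 apart and lower became 1 at a threshold of 2% (Mptx1, 0.652). After thinning, Ang4 was at 1.36, Defa21 at 1.399 and Defa41 at 1.41, each below the size limit by its ratio. Thinning gives every cell the same 2000 UMIs and leaves out shallower cells. The cause of the changes in any of these settings was not tested. Over all 9 settings run on each, Ang4 ranged from 1.34 to 1.62 and Defa21 from 1.399 to 1.80, and no gene apart turned its direction. Lyz1, Itln1, Defa26, Defa29, Defa39 and Defa40, all close to a ratio of 1, changed side in at least 1 setting. The ratio of the summed genes in enterocyte-like cells, 1.502, was 1.48 with no cell filter, 1.47 at clustering resolution 0.5 and 1.49 in cells under 2%, below the size limit. In lymphocyte-like cells, 1.53 became 1.49 with the stricter filter and 1.42 under 2%. The comparison within the Paneth-like cluster, sums over sequence groups, thinned bands, goblet-like folds of CPM and shares over the 32 genes other than Lyz1 and Defa24 by class were chosen after seeing the data. Leaving out a replicate was not possible with 1 library per group. No paired analysis was possible because each group is 1 library and no label ties a library number to a group. Depth limits the 11 genes under 100 UMIs.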
